A study of Mus musculus with 8 samples.

Results

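The genes described here encode the alpha-, beta- and gamma-tubulins, the tubulin tyrosine ligase-like (Ttll) ligases, the Tpgs subunits of the tubulin polyglutamylase complex and the Agbl carboxypeptidases, in the hippocampus of mice given the ATM kinase inhibitor KU55933 or vehicle. Members were every gene whose symbol begins with Tuba, Tubb, Tubg, Ttll, Tpgs or Agbl followed by a digit, with pseudogene symbols left out. The rule itself uses symbols and no measured value. This gave 35 of the 19558 genes in the table, namely 6 Tuba, 8 Tubb, 2 Tubg, 12 Ttll, 2 Tpgs and 5 Agbl genes, with 142 transcripts between them. Enough reads for a test were present for 31 members. The 4 untested members were Tuba3a, Tubb1, Ttll10 and Agbl1, which had at most 5, 3, 9 and 8 counts in any library.

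Microtubules are polymers of alpha- and beta-tubulin dimers, and gamma-tubulin sits in the ring complexes that start new microtubules. The genes of each family differ mostly in the last amino acids of the protein, an acidic tail exposed on the microtubule surface. Ttll enzymes add glutamate or glycine side chains to that tail, Agbl enzymes (cytosolic carboxypeptidases) remove the glutamates, and neuronal microtubules are known for heavy polyglutamylation.

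RNA was sequenced from 4 vehicle and 4 KU55933 libraries, each counted as 1 mouse following the labels, after poly(A) selection with a stranded kit. All mice were wild type, of the strain given as C57BL/6 KP, were treated at postnatal day 40, and were anaesthetised before intranasal dosing. KU55933 blocks ATM, a kinase known for its part in the DNA damage response. It was given at 7.5 mg/kg, and the controls received the vehicle, 4% DMSO in saline. The sources used here gave neither the sex of the mice nor the time from dosing to collection, and the p-values below measure only the spread between these libraries. The labels name the hippocampus, while the library protocol speaks of input RNA from hypothalamus and PFC.

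Total counts were 34190440 to 46630341 per library, and every vehicle library (lowest total 40586998) was deeper than every KU55933 library (highest total 37499003). All markers of hippocampal neurons (dentate and CA pyramidal cells) were detected. Their summed level was 899 to 1009 CPM (counts scaled to the normalised library total) in vehicle and 771 to 851 CPM in KU55933, without overlap. Of these markers, 2 of 8, C1ql2 and Wfs1, were called lower (log2 changes -1.57 and -0.81), against 14.6% of all genes tested. The others ran from -0.27 (Dsp) to 0.16 (Cpne4), none called. Summed choroid plexus markers were 59.98 to 126 CPM in vehicle, 1240 CPM in KU55933 1 and 1294 CPM in KU55933 2, against 86 and 69 CPM in the other two KU55933 libraries. Oligodendrocyte markers ranged from 3640 to 8303 CPM in vehicle libraries and from 4401 to 5932 CPM in KU55933. No marker of these lists was at 0 in all libraries, and the part of these marker levels in the results below was not tested. In bulk tissue, fewer cells of a type and less RNA per cell cannot be told apart. The trend with GC content given below was not separated from either of them.

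A further property moved with the treatment across the whole table: the change of a gene followed the GC content of its transcripts. Spearman's rho between the log2 change and GC content was -0.71 over 15470 genes and -0.61 over the 31 tested members, given as descriptions across genes that share the same libraries. A slope with GC was taken for each library's log2 expression relative to the gene's mean over all libraries. Per 10 percentage points of GC it was 0.14 to 0.27 in the vehicle libraries and -0.35 to -0.12 in the KU55933 libraries. The groups thus did not overlap, while the opposite signs follow from measuring against the shared mean. Members' GC content ran from 41.6% to 64.6%, with a median of 53.3% against 50.3% over all genes tested. A second fit therefore carried an offset that takes each library's trend with GC content and length out, and its values are called with the offset below. As the slopes differed between the groups, this offset also takes out any effect of treatment that follows GC content or length. Such an effect and a technical trend cannot be told apart in these libraries. Values with no such mark come from the fit without it.

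**Figure D1:**
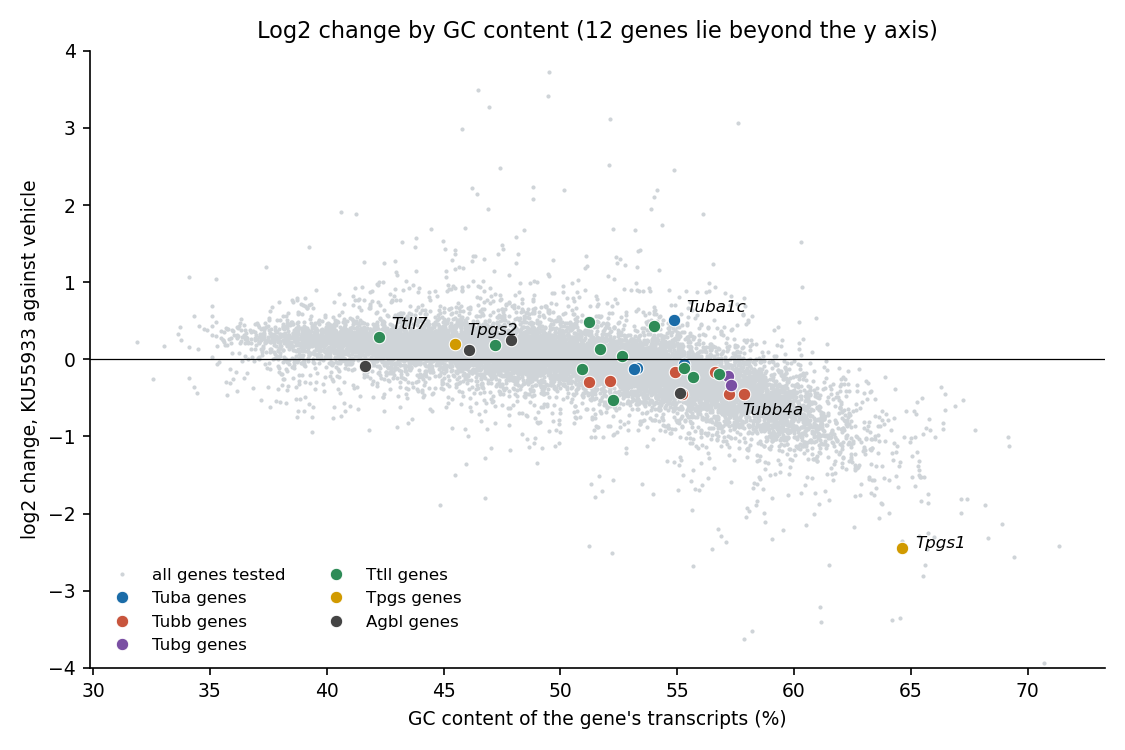
Log2 change of KU55933 against vehicle (y axis) by the GC content of the gene's transcripts in percent (x axis); grey points are all genes tested and coloured points the 31 tested members by family. The grey cloud slopes downward with GC content, and Tpgs1, at 64.6% GC, lies lowest of the members at -2.44, while Tuba1c lies at 0.50.

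The coding ends of 8 tubulin genes show where the glutamate-rich tail lies and how it differs between isotypes, with Tubb2a and Tubb2b nearly alike. Each line holds the last 60 coding bases, 20 codons with the stop codon, written 5′ to 3′ from the GENCODE M21 transcripts of assembly GRCm38, with glutamate codons (GAA or GAG) in capitals.
Tuba1c: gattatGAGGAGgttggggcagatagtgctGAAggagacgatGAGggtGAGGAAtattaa
Tuba4a: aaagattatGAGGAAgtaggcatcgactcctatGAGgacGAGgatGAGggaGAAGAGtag
Tubb2a: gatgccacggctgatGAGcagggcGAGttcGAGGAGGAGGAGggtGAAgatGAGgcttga
Tubb2b: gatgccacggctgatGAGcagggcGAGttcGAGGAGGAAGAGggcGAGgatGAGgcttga
Tubb3: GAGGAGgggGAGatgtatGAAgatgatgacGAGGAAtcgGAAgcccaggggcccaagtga
Tubb4a: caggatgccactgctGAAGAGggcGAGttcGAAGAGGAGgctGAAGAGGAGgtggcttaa
Tubb4b: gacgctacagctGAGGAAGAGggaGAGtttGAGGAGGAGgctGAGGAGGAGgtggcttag
Tubb5: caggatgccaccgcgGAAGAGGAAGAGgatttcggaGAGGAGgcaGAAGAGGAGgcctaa
Glutamate codons numbered 6 in Tuba1c, 7 in Tuba4a, 8 in Tubb2a and Tubb2b, 7 in Tubb3, 9 in Tubb4a and Tubb5, and 10 in Tubb4b. Tuba1c ends on a tyrosine codon (tat) before the stop, the residue that detyrosination removes, whereas Tuba4a ends on a glutamate codon. Over the coding sequence, Tuba1a and Tuba1b shared 98.3% of bases, Tuba1b and Tuba1c 97.9%, Tubb2a and Tubb2b 96.5%, and Tubg1 and Tubg2 93.3%. How the counting divided reads within these pairs is uncertain, and counts summed over a family do not depend on it. Sums per transcript length can, where lengths differ, as in Tubb2a (1610 bases) and Tubb2b (2176 bases).

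KU55933 samples had lower beta-tubulin and Tpgs1 RNA and more Tuba1c RNA in the fit without the offset, and Tpgs1 alone was still called with the offset. Of the 31 tested members, 1 was called higher (3.23%, against 6.92% of all 15481 genes tested) and 6 were called lower (19.4%, against 14.6% of all genes tested) in edgeR's quasi-likelihood test, at a Benjamini-Hochberg adjusted p under 0.05 across all genes. DESeq2 and limma-voom called these same 7 genes, while calling 11.7% and 6.33% of all genes higher and 16.7% and 14.3% lower. With the offset, edgeR called 0 members higher and 1 lower, Tpgs1, against 0.672% and 1.29% of all genes, and 5 members had an unadjusted p under 0.05 in that fit. The median log2 change of the tested members was -0.13 without the offset and 0.03 with it, against 0.01 over all genes tested in both fits. The groups did not overlap for 1 member higher in KU55933, Tuba1c, and 6 lower, Tpgs1, Tubb2a, Tubb4a, Tubb4b, Tubb5 and Tubg2, while 10.7% and 15.9% of all genes were separated in these directions. The shares of members called or separated thus lay below the background in the higher direction and a little above it in the lower direction. With KU55933 1 and 2, the libraries with high choroid plexus markers, left out, 2 of the 31 members were called lower, Tpgs1 and Tubb4a, and 0 higher, against 6.24% and 0.665% of all genes tested in that fit, so that the lower count was at the background.

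**Figure D2:**
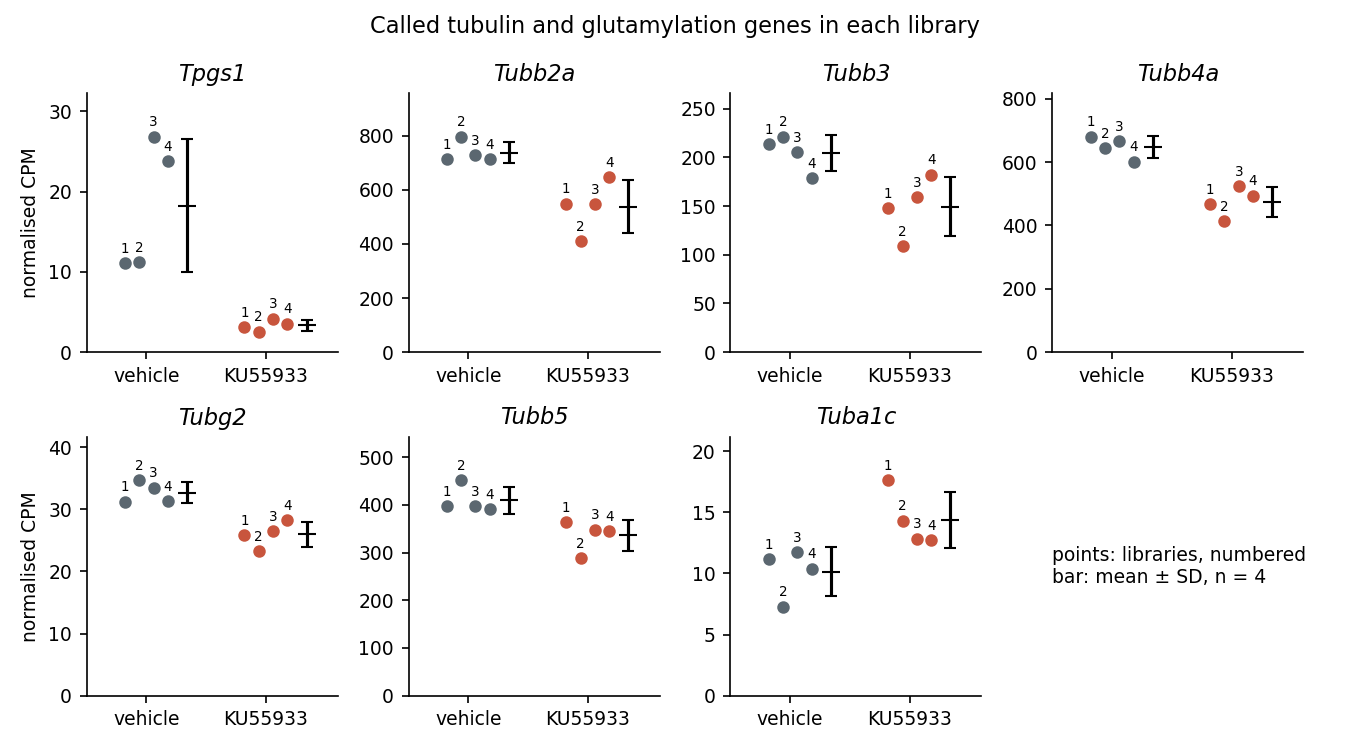
Normalised CPM (y axis, starting at 0) of the 7 members called without the offset in the 4 vehicle and 4 KU55933 libraries, numbered, with mean ± SD. Tpgs1 shows the widest gap, 11.1 to 26.9 CPM against 2.54 to 4.18 CPM, and for Tubb3 the highest KU55933 library lies above the lowest vehicle library.

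Among the alpha-tubulins, only the scarce Tuba1c was called, and the 3 genes that make up nearly all alpha-tubulin RNA were not. Tuba1a, the main alpha-tubulin of developing and adult neurons, was measured at 1115, 1222, 1051 and 997 CPM in vehicle 1 to 4 and at 1088, 864, 1011 and 1093 CPM in KU55933 1 to 4. KU55933 2 was lowest and vehicle 2 highest, and the groups overlapped. Its log2 change was -0.11 ± 0.09 (SE, adjusted p = 0.41 in edgeR's test), and -0.02 ± 0.09 with the offset. Tuba1b, a broadly expressed isotype, had 656 ± 65.1 CPM in vehicle libraries and 631 ± 69.9 CPM in KU55933 (SD, n = 4 each), and Tuba4a, the isotype encoded without a final tyrosine, had 477 ± 44.6 and 442 ± 37.8 CPM. Neither was called, and Tuba8 was not called at 9.19 ± 1.16 and 8.42 ± 0.945 CPM.

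Tuba1c (ENSMUSG00000043091) was measured at 11.2, 7.27, 11.7 and 10.4 CPM in vehicle 1 to 4 and at 17.6, 14.3, 12.9 and 12.7 CPM in KU55933 1 to 4. All KU55933 libraries lay above all vehicle libraries, with the 2 highest values in KU55933 1 and 2. The gene rose 1.42-fold, a log2 change of 0.50 ± 0.16 (SE, adjusted p = 0.0461 in edgeR's test), from 10.1 ± 1.99 to 14.4 ± 2.29 CPM. With the offset the log2 change was 0.72 ± 0.18 and the adjusted p 0.0869. The call lay close to the threshold, the adjusted p reaching 0.113 among the 8 fits that each left out 1 library. It was kept only when vehicle 1 or KU55933 4 was left out, and was not made without KU55933 1 and 2. Calls over all genes also changed with the library left out. Those higher numbered 1071 with all libraries, 1790 without vehicle 1, 1461 without KU55933 4 and 151 to 670 in the rest. Those lower numbered 2267 with all libraries and 1446 to 2558 with 1 left out. Calls kept, lost or gained by other members in such fits stand beside these counts. Tuba1c held 0.524% ± 0.136 of the alpha-tubulin transcripts in vehicle and 0.767% ± 0.146 in KU55933, per transcript length. Reads of Tuba1a or Tuba1b assigned to Tuba1c could move this value, given the shared sequence above.

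Of the 7 tested beta-tubulin genes, 4 fell in KU55933 (Tubb2a, Tubb3, Tubb4a and Tubb5), against 14.6% of all genes, and all 7 log2 changes were below 0, with a median of -0.30. With the offset edgeR called 0 of the 7 (3 had an unadjusted p under 0.05), the median was -0.06, and Tubb4b and Tubb6 turned to 0.05 and 0.17. Tubb4a, an isotype of neurons and oligodendrocytes, was measured at 680, 644, 666 and 601 CPM in vehicle 1 to 4 and at 466, 414, 524 and 494 CPM in KU55933 1 to 4. Every KU55933 library lay below every vehicle library. Tubb4a (ENSMUSG00000062591) fell 1.37-fold, a log2 change of -0.45 ± 0.08 (SE, adjusted p = 0.00477 in edgeR's test), and was called in all 8 fits that each left out 1 library. With the offset its log2 change was -0.06 ± 0.08 (adjusted p = 0.731), so that the call was not made.

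Tubb2a, the beta-tubulin with the highest level in these libraries, was measured at 713, 796, 727 and 713 CPM in vehicle 1 to 4 and at 549, 410, 546 and 646 CPM in KU55933 1 to 4. The groups did not overlap, and KU55933 2 was lowest. Tubb2a fell 1.37-fold, a log2 change of -0.45 ± 0.12 (SE, adjusted p = 0.0226 in edgeR's test). With the offset it was -0.22 ± 0.09 (adjusted p = 0.28), and without vehicle 2 or vehicle 3 the call was lost, the adjusted p reaching 0.0682. Its near copy Tubb2b was not called, with 238 ± 12.4 CPM in vehicle libraries and 194 ± 35.3 CPM in KU55933 (log2 change -0.30 ± 0.12, adjusted p = 0.0872, and -0.31 ± 0.11 with the offset). It was called lower without KU55933 4 (adjusted p = 0.0198).

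Tubb3, the isotype known as a marker of neurons, was measured at 213, 221, 205 and 178 CPM in vehicle 1 to 4 and at 148, 109, 159 and 182 CPM in KU55933 1 to 4. KU55933 4 lay above vehicle 4, so the groups overlapped, and KU55933 2 was again lowest. Tubb3 fell 1.37-fold, a log2 change of -0.45 ± 0.14 (SE, adjusted p = 0.0425 in edgeR's test). The call was lost in 6 of the 8 fits that left out 1 library, all but those without vehicle 4 or KU55933 4, and the log2 change with the offset was -0.00 ± 0.11.

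Tubb5, a beta-tubulin of many cell types, was measured at 397, 452, 397 and 391 CPM in vehicle 1 to 4 and at 364, 289, 348 and 345 CPM in KU55933 1 to 4. The groups were separate, and vehicle 2 stood above the other vehicle libraries. Tubb5 fell 1.22-fold, a log2 change of -0.28 ± 0.09 (SE, adjusted p = 0.0415 in edgeR's test). The value with the offset was close to it, -0.25 ± 0.09, but was not called (adjusted p = 0.184). The call without the offset was kept in 1 of the 8 fits that left out 1 library, the fit without KU55933 1. Tubb4b, which mean levels placed at 243 ± 10.2 CPM in vehicle libraries and 217 ± 19.8 CPM in KU55933, was not called (adjusted p = 0.154) although its groups did not overlap. Tubb6 was scarce, at 0.694 and 0.619 CPM, and was not called.

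Of the gamma-tubulins, Tubg2 fell and Tubg1 was not called. Tubg2, the gamma-tubulin expressed mainly in brain, was measured at 31.2, 34.7, 33.4 and 31.3 CPM in vehicle 1 to 4 and at 25.8, 23.3, 26.5 and 28.3 CPM in KU55933 1 to 4, without overlap. Tubg2 fell 1.26-fold, a log2 change of -0.33 ± 0.08 (SE, adjusted p = 0.0183 in edgeR's test), and the call was lost without vehicle 2 or vehicle 3. With the offset the direction turned, to 0.08 ± 0.07 (adjusted p = 0.581). Tubg1, the broadly expressed copy, had 30.7 ± 2.20 CPM in vehicle libraries and 26.5 ± 4.36 CPM in KU55933, a log2 change of -0.21 ± 0.11 without the offset and 0.18 ± 0.08 with it, neither called. Without KU55933 4 it was called lower (adjusted p = 0.0333).

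Summed over each family, the beta-tubulin level was lower in every KU55933 library than in every vehicle library, and the alpha-tubulin level was not. The 8 beta-tubulin genes together had 2484, 2626, 2463 and 2352 CPM in vehicle 1 to 4 and 1948, 1561, 1999 and 2130 CPM in KU55933 1 to 4, a mean 1.30-fold lower. The 6 alpha-tubulin genes had 2249 ± 200 CPM in vehicle libraries and 2110 ± 215 CPM in KU55933 (SD, n = 4 each), with overlap. Per transcript length, as TPM (counts over length, scaled to the same total in each library), alpha-tubulin was 3039 ± 240 and beta-tubulin 3065 ± 127 in vehicle, against 2884 ± 189 and 2399 ± 250 in KU55933. The ratio of alpha- to beta-tubulin TPM was 1.01, 1.04, 0.944 and 0.966 in vehicle 1 to 4 and 1.27, 1.26, 1.15 and 1.14 in KU55933 1 to 4. Every KU55933 library had a higher ratio than every vehicle library, with KU55933 1 and 2 the highest. These sums carry no offset for GC content, and the GC content was 51.2% to 57.9% in the tested beta-tubulin genes and 53.2% to 55.3% in the tested alpha-tubulin genes. The part of cell makeup, depth and GC content in these ratios was not tested.

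Among the alpha-tubulins and the 6 abundant beta-tubulins, the order by mean TPM was the same in both groups except that Tubb4b and Tubb5 changed places. Tubg2 lay above Tubg1 in vehicle (44.7 ± 2.25 and 41.4 ± 2.71 TPM) and level with it in KU55933 (36.1 ± 2.01 and 36.1 ± 5.25 TPM). Tuba1a held 48.0% of alpha-tubulin TPM in vehicle and 47.5% in KU55933, Tuba1b 30.0% and 30.9%, and Tuba4a 21.2% and 20.5%. Tubb2a held 35.8% ± 0.902 and 33.7% ± 1.87 of beta-tubulin TPM, and Tubb4a 22.8% and 21.7%. Tubb4b held 11.9% ± 0.165 in vehicle and 13.9% ± 0.887 in KU55933, and Tubb5 12.3% ± 0.382 and 13.6% ± 0.928. In vehicle and in KU55933 alike, Tubb4b and Tubb5 differed from each other by no more than the sum of their SDs, and differences in these shares between the groups were not tested.

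**Figure D3:**
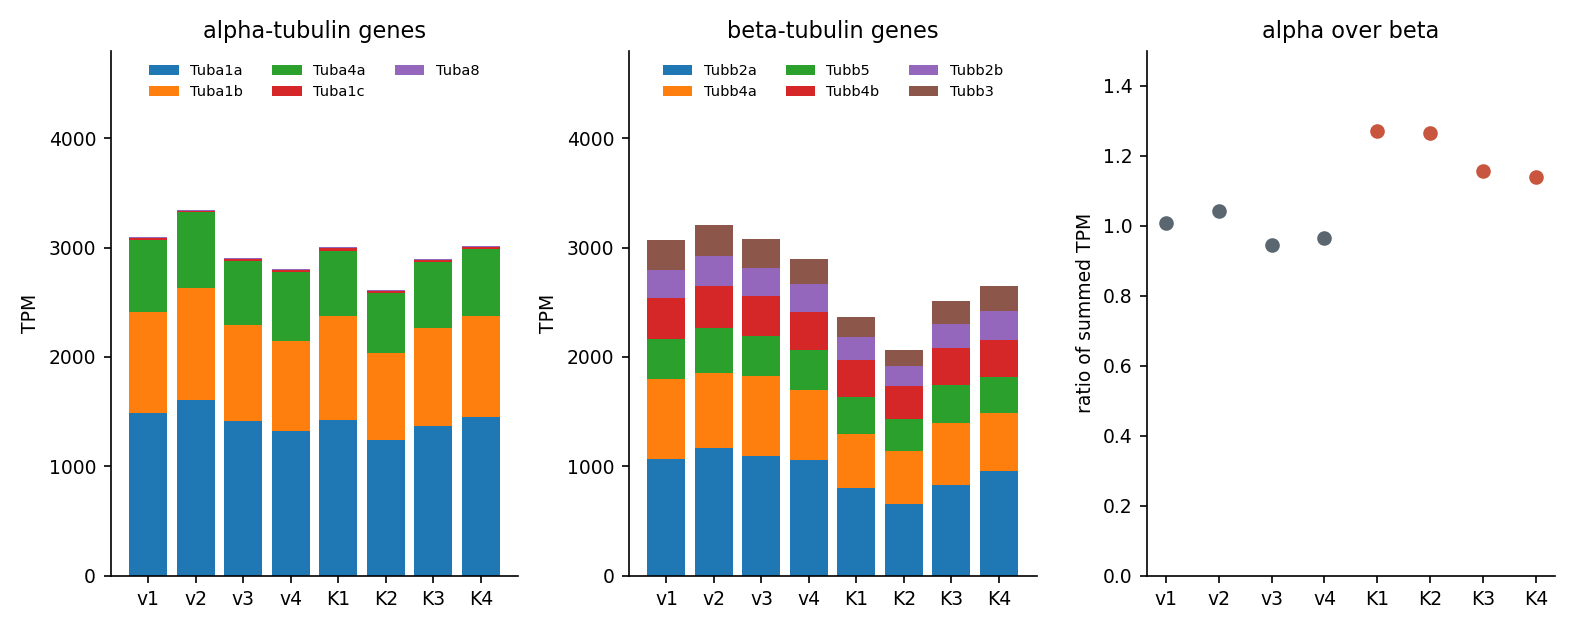
Left and middle panels show TPM (y axis) of the alpha- and beta-tubulin genes stacked in each library (v, vehicle; K, KU55933); the right panel shows the ratio of their sums. Alpha-tubulin stacks overlap between the groups, beta-tubulin stacks are lower in all 4 KU55933 libraries, and the ratio is 0.944 to 1.04 in vehicle and 1.14 to 1.27 in KU55933.

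Of the glutamylation machinery, Tpgs1 fell, and no Ttll or Agbl gene was called. Tpgs1 and Tpgs2 are non-catalytic subunits of the neuronal tubulin polyglutamylase complex, in which Ttll1 is the ligase and Lrrc49 and Nicn1 are further partners. The first 60 coding bases of Tpgs1 and of the ligases Ttll1 and Ttll7 follow, from the same GENCODE transcripts, with G and C in capitals.
Tpgs1: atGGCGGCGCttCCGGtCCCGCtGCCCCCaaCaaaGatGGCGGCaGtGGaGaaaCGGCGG
Ttll1: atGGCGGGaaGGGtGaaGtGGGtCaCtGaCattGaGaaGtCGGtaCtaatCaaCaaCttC
Ttll7: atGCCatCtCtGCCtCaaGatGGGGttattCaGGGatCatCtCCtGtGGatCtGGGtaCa
Of these 60 bases, 41 were G or C in Tpgs1, 29 in Ttll1 and 30 in Ttll7. Over the whole transcript GC content was 65.3%, 52.7% and 41.7%, so that the difference between the 2 ligases lies outside the stretch shown. The starts of Ttll3, Ttll11 and Ttll12 held more G and C than that of Tpgs1, at 46, 45 and 44 of 60 bases. Over the whole transcript their GC content was lower than that of Tpgs1, at 58.1%, 55.4% and 56.8%.

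Tpgs1 (ENSMUSG00000020308) was measured at 11.1, 11.2, 26.9 and 23.8 CPM in vehicle 1 to 4 and at 3.13, 2.54, 4.18 and 3.55 CPM in KU55933 1 to 4. All KU55933 libraries were far below all vehicle libraries, and the vehicle libraries themselves split, with vehicle 3 and 4 above vehicle 1 and 2. Their GC slopes were ordered alike, at 0.27 and 0.26 against 0.14 and 0.20. Tpgs1 fell 5.43-fold, a log2 change of -2.44 ± 0.33 (SE, adjusted p = 0.00174 in edgeR's test), the most negative change among the tested members, and it was called in all 8 fits that left out 1 library. With the offset its log2 change was -1.05 ± 0.16 (adjusted p = 0.01003), still called, with -1.14 to -0.92 when 1 library was left out and the call lost without KU55933 2 (adjusted p = 0.0508). Without both KU55933 1 and 2 it was -2.23 (adjusted p = 0.0354), and with the offset as well -0.96 (adjusted p = 0.129). The main transcript, with 96.5% of the gene's counts, had a log2 change of -2.56 ± 0.35 (adjusted p = 0.00617), and -0.62 ± 0.18 (adjusted p = 0.147) when the offset was computed per transcript.

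Ttll1, Tpgs2, Lrrc49 and Nicn1 were not called by edgeR, and DESeq2 called Lrrc49 higher, as given below. Ttll1 was measured at 25.8, 26.0, 24.6 and 23.2 CPM in vehicle 1 to 4 and at 27.2, 25.4, 25.1 and 25.2 CPM in KU55933 1 to 4, with overlap. Its log2 change was 0.05 ± 0.07 (adjusted p = 0.679), and 0.11 ± 0.08 with the offset. Tpgs2 was measured at 53.5, 54.0, 51.4 and 49.7 CPM in vehicle 1 to 4 and at 67.3, 61.8, 58.4 and 52.6 CPM in KU55933 1 to 4. Only KU55933 4 lay within the vehicle range, and the log2 change was 0.20 ± 0.08 (adjusted p = 0.099), with 0.03 ± 0.07 under the offset. Without KU55933 4 it was called higher (adjusted p = 0.0311). Per transcript length, Tpgs1 had 40.7 ± 17.5 TPM in vehicle, above Tpgs2 (30.2 TPM) and Ttll1 (29.2 TPM), and 8.69 ± 1.49 TPM in KU55933, below Tpgs2 (35.4 TPM) and Ttll1 (30.7 TPM). In vehicle the SD of Tpgs1 spanned all 3 levels, so their order there is not separated.

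Of the 11 tested Ttll genes, 0 were called by edgeR, DESeq2 or limma-voom, and 1, Ttll7, had an unadjusted p under 0.05. Over all genes, edgeR called 6.92% higher and 14.6% lower, DESeq2 11.7% and 16.7%, and limma-voom 6.33% and 14.3%. Whether 0 of 11 departs from these shares was not tested. Ttll7, a polyglutamylase of neurons that acts mainly on beta-tubulin, was measured at 275, 218, 232 and 207 CPM in vehicle 1 to 4 and at 330, 292, 266 and 248 CPM in KU55933 1 to 4. It was the most abundant ligase, at 83.7 TPM in vehicle and 103 TPM in KU55933, and vehicle 1 lay above KU55933 3 and 4. Its log2 change was 0.29 ± 0.11 (adjusted p = 0.0845) without the offset and 0.06 ± 0.08 with it, and it was called higher without vehicle 1 or without KU55933 4. The branch-initiating polyglutamylases Ttll4 and Ttll5 had 36.0 and 30.0 CPM in vehicle libraries and 41.1 and 33.1 CPM in KU55933. Ttll11, which lengthens glutamate chains, had 35.0 and 32.3 CPM, while Ttll6 and Ttll13, of the same kind, stayed between 0.51 and 1.28 CPM in both group means. The glycylases Ttll3 and Ttll8 had 12.6 and 1.91 CPM in vehicle libraries and 10.7 and 1.323 CPM in KU55933. Ttll12, for which no glutamylase or glycylase activity is established, had 18.2 and 15.9 CPM, and Ttll9, of the polyglutamylase branch of the family, 0.795 and 1.08 CPM. Log2 changes of the 11 genes ran from -0.53 (Ttll8) to 0.48 (Ttll6), with adjusted p between 0.0845 and 0.822. With the offset they ran from -0.48 (Ttll8) to 0.59 (Ttll9), and Ttll8 was called lower without vehicle 1 (-0.71, adjusted p = 0.0165, no offset).

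The deglutamylases were not called either: 0 of 4 tested Agbl genes by edgeR, DESeq2 or limma-voom, with 1 unadjusted p under 0.05, that of Agbl5. The shares over all genes are those given for the Ttll genes, and 4 genes are too few to set the 0 against them. Agbl5, the enzyme that removes the glutamate at the branch point, was measured at 10.1, 13.1, 13.7 and 14.03 CPM in vehicle 1 to 4 and at 6.52, 11.1, 9.55 and 10.4 CPM in KU55933 1 to 4. KU55933 1 was lowest, and KU55933 2 and 4 lay above vehicle 1. The log2 change was -0.44 ± 0.17 (adjusted p = 0.0803) and -0.23 ± 0.15 with the offset, and without vehicle 1 Agbl5 was called lower (adjusted p = 0.0340). Agbl2, Agbl3 and Agbl4, which shorten glutamate chains, had log2 changes of 0.12, -0.09 and 0.24, and of -0.05, -0.25 and 0.14 with the offset, none called. Agtpbp1, the founding deglutamylase, whose loss is known to kill Purkinje cells, is outside the symbol rule. It had 239 ± 7.43 CPM in vehicle libraries and 257 ± 10.1 CPM in KU55933 and was not called (adjusted p = 0.234).

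**Figure D4:**
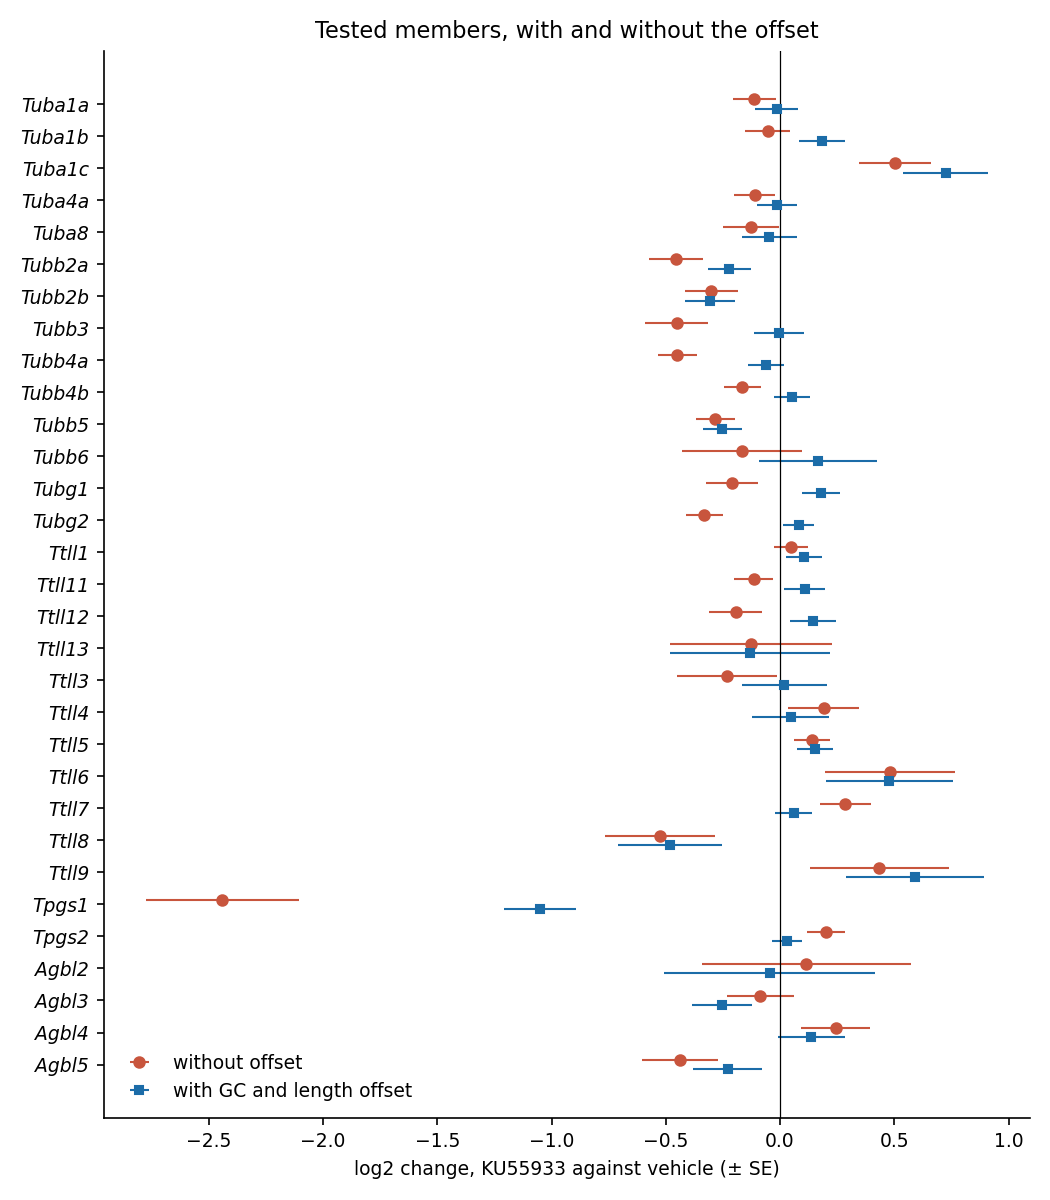
Log2 change of KU55933 against vehicle (x axis, ± SE) for the 31 tested members, without (circles) and with (squares) the GC and length offset. Tpgs1 moves from -2.44 to -1.05, Tubb3 from -0.45 to -0.00 and Tubg2 from -0.33 to 0.08, while Tubb5 stays near -0.25.

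Per transcript, 83 of the members' 142 transcripts were tested, and 1 was called higher and 3 lower, against 1.06% and 5.7% of the 45343 transcripts tested. The 3 lower ones were the main transcripts of Tpgs1 (above), Tubb4a (log2 change -0.48 ± 0.10, adjusted p = 0.0211) and Tubg2 (-0.36 ± 0.09, adjusted p = 0.0488). With an offset computed per transcript, these 2 were at 0.12 and 0.23, neither called. The higher one was a Tubb5 transcript annotated as a retained intron (ENSMUST00000173253), which moved against the rest of its gene. It was measured at 4.59, 3.16, 2.25 and 2.18 CPM in vehicle 1 to 4 and at 8.61, 6.38, 10.6 and 7.38 CPM in KU55933 1 to 4. All KU55933 libraries lay above all vehicle libraries, with a log2 change of 1.44 ± 0.29 (adjusted p = 0.0223 in edgeR's test) and 1.80 ± 0.33 with the offset (adjusted p = 0.0351). It held 1.46% of Tubb5 counts, and the main transcript, with 98.3%, had a log2 change of -0.34 ± 0.10 (adjusted p = 0.0840). Of the 13 retained-intron transcripts of members tested, it was the 1 called. The share called among all retained-intron transcripts is not given here, so 1 of 13 cannot be set against it.

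Genes that work with the tubulins were read from lists chosen with earlier results of these data known. Among the other modifying enzymes and polyglutamylase partners, 1 of 10 tested genes was called, lower, and 0 higher by edgeR (4 with an unadjusted p under 0.05), where 14.6% and 6.92% of all genes were called. The same shares stand behind the edgeR counts of the next lists, with 1.29% and 0.672% behind those with the offset. It was Vash1, the catalytic subunit of a tubulin detyrosinase, at 23.3 ± 2.93 CPM in vehicle libraries and 13.0 ± 1.28 CPM in KU55933 (log2 change -0.84 ± 0.11, adjusted p = 0.000929). Its partner Svbp (-0.31 ± 0.11, adjusted p = 0.0768) and the complex subunit Lrrc49 (0.17 ± 0.07, adjusted p = 0.084) were not called by edgeR, and had -0.11 and 0.06 with the offset. Lrrc49 was at 44.6 to 48.9 CPM in vehicle and 50.4 to 56.2 CPM in KU55933, without overlap, and DESeq2 called it higher. With the offset Vash1 was at 0.11 (adjusted p = 0.677), and 0 of the 10 were called. The median log2 change of this list was -0.13, and 0.02 with the offset.

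Of 13 gamma-tubulin ring complex genes and other tubulins, edgeR called 1 lower and 0 higher, with and without the offset. It was Pcnt, the centrosomal scaffold pericentrin, at 34.3 ± 2.07 CPM in vehicle libraries and 23.5 ± 1.99 CPM in KU55933. Its log2 change was -0.55 ± 0.09 (adjusted p = 0.00184) and -0.50 ± 0.07 with the offset (adjusted p = 0.00739). Next came Akap9 (0.30, adjusted p = 0.0529), a centrosome and Golgi scaffold, and Mzt2 (-0.33, adjusted p = 0.054), a small ring complex subunit, which DESeq2 called but edgeR did not, and which had 0.10 and -0.13 with the offset. The list's median was 0.00, and -0.07 with the offset.

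Of 21 tubulin folding genes, 3 rose (Vbp1, Cct2 and Pfdn4, of prefoldin and the CCT chaperonin) and 3 fell by edgeR, with a median of 0.12, and DESeq2, which called 11.7% of all genes higher and 16.7% lower, called 7 higher and 3 lower. The cofactors Tbcc (10.8 ± 2.89 CPM in vehicle, 5.06 ± 0.789 in KU55933, log2 change -1.10 ± 0.20, adjusted p = 0.00409) and Tbcb (-0.47 ± 0.10, adjusted p = 0.00921) fell. So did Arl2 (-0.38 ± 0.09, adjusted p = 0.0114), a small GTPase that works with these cofactors. With the offset these 3 were at -0.19, -0.20 and 0.12, none called, and the 1 call of the list was the prefoldin subunit Pfdn5, higher (0.37 ± 0.08, adjusted p = 0.0467), with a median of 0.07.

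Of 29 microtubule-associated proteins, stathmins and severing enzymes, 7 rose and 6 fell by edgeR, against 6.92% and 14.6% of all genes, with a median of 0.06. Without KU55933 1 and 2, 0 were called higher and 4 lower, against 0.665% and 6.24% of all genes. Map1s, a microtubule-binding protein of the MAP1 family, had 60.2 ± 11.6 CPM in vehicle libraries and 17.7 ± 3.52 CPM in KU55933 (log2 change -1.76 ± 0.17, adjusted p = 0.000504), and fell also with the offset (-0.72 ± 0.10, adjusted p = 0.0064). Map7d1 (207 ± 23.4 to 122 ± 7.35 CPM, adjusted p = 0.000572) and Stmn3 (286 ± 15.6 to 188 ± 22.9 CPM, adjusted p = 0.00177), a neuronal stathmin, fell without the offset, and with it were at 0.17 and -0.17, not called. The 7 that rose were Spast, Map7d2, Fign, Map2, Mapre1, Map9 and Camsap2. With the offset 1 gene of the list was called higher, Map6 (0.33 ± 0.06, adjusted p = 0.0252), which stabilises neuronal microtubules, and 1 lower, Map1s, with a median of 0.03.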

How the data were processed

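The authors deposited estimated counts per transcript for 8 libraries. The submitters' processing notes name FastQC 0.11.9, Salmon 1.4.0, DESeq2 1.32.0 and assembly GRCm39. The sources used here give no settings. Deposited counts were summed per gene and taken as whole numbers, with any fraction dropped. Genes passing filterByExpr were scaled by TMM and tested with edgeR 4.0.16 (robust quasi-likelihood, 2-sided) in R 4.3.3, with Benjamini-Hochberg adjustment over all genes and a threshold of 0.05. GC content, length and printed sequences came from GENCODE M21 transcripts (GRCm38), which matched 99.7% of transcript IDs holding 99.8% of counts. No coordinates were taken from either build. TPM was computed here from counts and transcript lengths. The offset fit used, per library, splines on GC content (6 df) and length (5 df). Spread is the SD over 4 libraries, and depth is the total count per library.

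Members and lists were chosen with earlier results of these data known. Values in every library are given for called members, the member with the highest mean CPM of each family, and Ttll1, Ttll7, Tpgs1 and Tpgs2. Of each further list, the counts and the 3 genes with the smallest p are given. Alternatives were other scalings, filters and dispersions, DESeq2 1.42.0, limma 3.58.1 (voom), a replicate block, GC offsets, left-out libraries and a threshold of 0.1. The per-transcript offset, and the offset without KU55933 1 and 2, were added after seeing the data. The fits were tested on simulated counts. No libraries were duplicates. Matcap1, Matcap2 and Cstpp1 were not matched by symbol and are not analysed here. Python 3.11.15, pandas 2.3.3, Biopython 1.88 and matplotlib 3.10.9 were used.

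Summed marker levels of the other lists, in CPM in vehicle and in KU55933 libraries, were 9905 to 10760 and 8955 to 10782 for mature neurons (0 of 8 called higher, 2 lower), 163 to 195 and 150 to 185 for immature neurons (0 called), 126 to 145 and 130 to 201 for subcortical neurons (3 of 8 higher), 38.2 to 50.3 and 44.9 to 55.5 for ependyma (2 of 12 higher), 5234 to 6334 and 5072 to 6723 for astrocytes (2 of 9 lower), 320 to 373 and 289 to 359 for microglia (1 of 8 lower), and 259 to 282 and 245 to 300 for endothelium (1 of 8 higher, 1 lower). Over all genes tested, 6.92% were called higher and 14.6% lower. The part of these marker levels in the results was not tested.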

Additional observations from a re-analysis of the deposited data

Results flagged for a closer look

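In 3 of 70 sets of 4 libraries (4.29%), 1 library stood apart from the other 3 by Dixon's 95% limit, and chance gives about 1 in 20. Tubb5 was 452 CPM in vehicle 2, against 391 to 397 CPM in the other vehicle libraries. Ttll5 was 33.9 CPM in vehicle 1, against 28.6 to 28.9 CPM. Ttll1 was 27.2 CPM in KU55933 1, against 25.1 to 25.4 CPM in the other KU55933 libraries.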

How the results depend on the processing

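Members called higher numbered 1, and 0 with no filter, with the GC and length offset, with the GC offset, without KU55933 1 and 2, and without these under the offset. They numbered 2 with the replicate block, 3 at an adjusted p of 0.1 and 0 to 3 with 1 library left out. Members called lower numbered 6, and 1 with the GC and length offset, with the GC offset and with the block and offset together, 2 without KU55933 1 and 2, 0 without these under the offset, 8 at an adjusted p of 0.1, and 2 to 7 with 1 library left out. Under the offset with 1 library left out, 0 to 1 were lower. Transcripts of members called numbered 4, and 1 with the offset. Over all genes, 151 to 1790 were called higher and 1446 to 2558 lower with 1 library left out. Under the offset these were 24 to 327 and 58 to 383. With no filter, 692 were called higher and 2171 lower, and with the GC offset 78 and 164. The block with the offset gave 346 and 444, and the fit without KU55933 1 and 2 under the offset 4 and 28. Counts over all genes at an adjusted p of 0.1 are not given here.

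Of 649 values of single genes under alternatives, 559 kept direction and side of the threshold, 44 lost the call, 13 gained it and 33 changed direction. Only values of members called in the main fit could lose a call. Values at the threshold of 0.1 could neither lose it nor change direction. With the GC and length offset, the GC offset, and the block with the offset, the log2 changes that turned were 0.11, 0.11 and 0.10 for Ttll11, 0.14, 0.15 and 0.15 for Ttll12, 0.18, 0.17 and 0.18 for Tuba1b, 0.0503, 0.0298 and 0.0485 for Tubb4b, 0.17, 0.16 and 0.17 for Tubb6, 0.18, 0.17 and 0.18 for Tubg1, and 0.0822, 0.0703 and 0.0825 for Tubg2. With both offsets, Ttll3 turned to 0.0184 and 0.0179 and Agbl2 to -0.0462 and -0.0416. Without KU55933 1 and 2, Agbl2 was -0.17 and Ttll13 0.0621. With 1 library left out, Agbl2 ran from -0.22 to 0.35, Ttll13 from -0.33 to 0.18 and Tuba1b from -0.10 to 0.0150. The cause of these turns was not tested.

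Replicate numbers were used as a block though the libraries share only a number: correlations of same-numbered libraries were 0.29, 0.08, 0.04 and 0.20. The block called 2 members higher (Tuba1c and Ttll7) and 6 lower. Vehicle 1, 2 and 4 each correlated best with the KU55933 library of their own number, and vehicle 3 with KU55933 2. Seen from the other side, KU55933 1 and 4 correlated best with their own number. KU55933 2 correlated best with vehicle 4 (0.11) and KU55933 3 with vehicle 1 (0.07). Over all genes, calls numbered 1071 higher and 2267 lower, 1720 and 2724 with the block, 1811 and 2588 with DESeq2, and 104 and 200 with the offset. Ratios of family sums (KU55933 mean over vehicle mean) had 9 alternatives, none of them with a GC offset. Over these they stayed within 0.740 to 0.816 for beta-, 0.914 to 0.984 for alpha- and 0.784 to 0.865 for gamma-tubulin. The 4 members with under 10 counts in every library could not be tested at this depth.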
